A study of Mus musculus with 6 samples.

Results

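The genes of the integrated stress response and the unfolded protein response were examined in RAW264.7, a mouse macrophage-like cell line, as a list of 31 genes chosen by name among the 54532 genes of the deposited tables. Of these, 15 are Atf4 and genes it is known to drive (the ATF4 arm), 4 are the stress sensors of the endoplasmic reticulum (ER) and Xbp1, the transcription factor 1 of them activates, and 12 are ER chaperones, folding factors and parts of the disposal route for misfolded proteins (the ER arm). All 31 passed the filter on low counts. The 3 control libraries are labelled wild type and carry no treatment entry, and the 3 others are labelled ERMAP knockdown with shRNA. ERMAP is a membrane protein of the butyrophilin family. The protocol field mentions ERMAP-shRNA lentivirus for controls and knockdown alike, no label names a non-targeting virus, and no source used here gives the shRNA sequence or the number of clones. The series' design text asks which genes differ after ERMAP knockdown, and here that question is put to the stress genes. Nothing in the labels says whether libraries of a group come from separate cultures, so p-values may reflect technical spread alone.

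Cells meet many kinds of stress with a single step, the phosphorylation of the translation factor eIF2 by a small family of kinases: PERK (Eif2ak3) in the ER, PKR (Eif2ak2) bound to double-stranded RNA, GCN2 (Eif2ak4) under amino acid shortage and HRI (Eif2ak1) under heme shortage or oxidative stress. Bulk translation then falls while ATF4 is translated more, and ATF4 switches on amino acid synthesis, transporters, and feedback genes such as Trib3 and Ppp1r15a. Misfolded protein in the ER also activates ATF6 and IRE1 (Ern1), which splices Xbp1 mRNA, and these raise ER chaperones. In macrophages these sensors are also known to act in innate immune signalling.

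The depth was 13447021 to 16602734 counts per library. Counts of Ermap itself were 12, 12 and 3 in control and 10, 21 and 14 after the labelled knockdown, with a log2 fold change of 0.81 (95% confidence limits -0.38 to 2.01, edgeR adjusted p = 0.929), so at these few counts a fall of its mRNA was not detected. Every direction here compares libraries by their labels, ERMAP shRNA over control. Of 8 macrophage markers 7 passed the filter, and their sum was 6706 to 7042 CPM in all libraries, against at most 2.69 CPM for each of the marker lists of other cell types. Control replicate 1 stood apart, with 3.69% mitochondrial counts against 1.71% to 2.18% elsewhere, and it was the lowest or the highest of the 6 libraries in 26 of the 31 stress genes. Results that rest on it are given with and without it. In bulk RNA, fewer cells of a kind and less RNA per cell cannot be told apart.

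No member of either arm and no sensor was called (edgeR, adjusted p under 0.05, n = 3 per group). This was 0 of 31, where 1.14% of all 12491 tested genes were called, so the count lies near the background. DESeq2 and limma-voom also called 0. At an unadjusted p under 0.05, 1 member was higher (Manf) and 0 were lower, against 3.71% and 3.04% of all tested genes. The precision was enough to bound most changes: the 95% interval lay within 1.5-fold of no change in 22 of 31 members (58.4% of all tested genes) and within 2-fold in 30 of 31 (82.6%), Chac1 being the exception. The groups did not overlap in 5 members, each higher in the labelled libraries (Atf5, Ddit3, Manf, Pdia4 and Ern1), where 7.74% of all tested genes did so; 0 were lower without overlap, against 6.47%. Without control replicate 1, 30 of 31 intervals lay within 1.5-fold (70.6% of all tested genes) and 31 within 2-fold (83.1%), and with offsets for GC content, described further on, 29 (70.3%) and 31 (84.9%). The fold change was above 0 in 22 of 31 members with all libraries, in 23 without control replicate 1 (48.6% of all tested genes) and in 25 with GC offsets (51.3%). All 31 stayed uncalled without control replicate 1 and in every other alternative tried, with a smallest adjusted p of 0.0924 (Dnajc3 without control replicate 1, edgeR).

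Of the kinases at the head of the pathway, PKR alone passed the test, and it rose. Eif2ak2 had 59.5, 41.7 and 44.5 CPM (counts scaled to the library total with TMM factors) in the control libraries and 113.5, 117.5 and 112.8 CPM in the labelled ones. Every labelled library stood well above every control. Its log2 fold change was 1.24 (SE 0.14, edgeR adjusted p = 0.00503), and 1.40 without control replicate 1. Eif2ak2 is itself interferon-induced, and mRNA level does not report kinase activity or eIF2 phosphorylation, which were not measured here.

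The other 3 kinases, named as the rest of the family and not by their p, had narrow intervals around no change. Eif2ak1 had 68.2 ± 7.31 CPM (mean ± SD, n = 3) in control against 70.2 ± 2.56 CPM in the labelled libraries, with a 95% interval from -0.21 to 0.29. Eif2ak4 had 62.6 ± 1.55 and 62.1 ± 3.08 CPM, with an interval from -0.22 to 0.20. Eif2ak3, the PERK gene and a member, had 34.2, 37.8 and 36.8 CPM in control against 35.9, 38.6 and 37.5 CPM in the labelled libraries. Its groups interleave, and its log2 fold change was 0.04 (SE 0.10, edgeR adjusted p = 0.96). A list of 12 genes holds Eif2ak1, Eif2ak2, Eif2ak4, the subunits of eIF2 and of its exchange factor eIF2B, and Ppp1r15b, a subunit of the phosphatase that acts on eIF2. Of these, 1 was called, Eif2ak2, where 1.14% of all tested genes were, and the other 11 had intervals within 1.5-fold (58.4% of all tested genes).

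**Figure D1:**
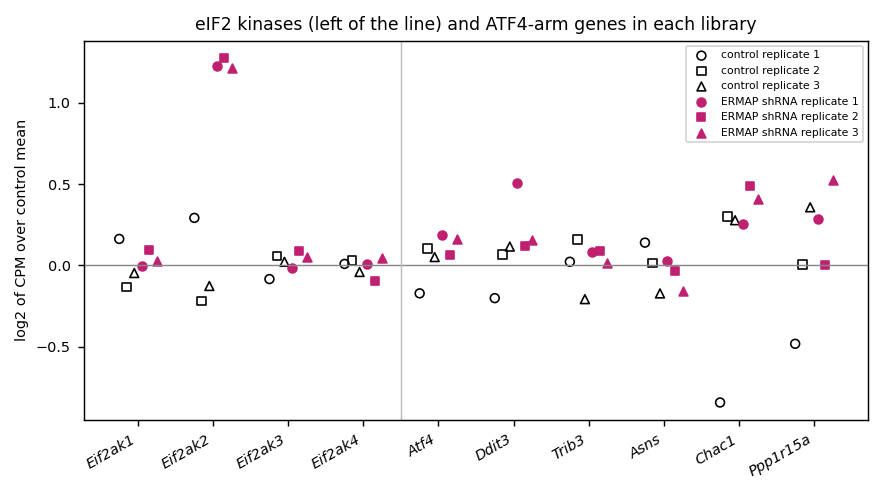
log2 of each library's CPM over the control mean for the 4 eIF2 kinases and 6 genes of the ATF4 arm. Open symbols are control libraries and filled symbols libraries labelled ERMAP shRNA. Eif2ak2 separates the groups, while in the other genes the labelled libraries fall among or near control replicates 2 and 3. Ddit3 in labelled replicate 1 departs from this, at 0.51 against 0.07 and 0.12 in those controls. Control replicate 1 is the lowest point of Chac1, Ppp1r15a, Ddit3 and Atf4.

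Atf4, the transcription factor at the centre of the response, lies on chromosome 15 of mm10 from 80255184 to 80257541 (plus strand). It had 239.4, 290.1 and 279.4 CPM in control against 306.7, 282.3 and 302.2 CPM in the labelled libraries. Labelled replicate 2 lay between the controls, and control replicate 1 was lowest. The log2 fold change was 0.14 (SE 0.10, 95% confidence limits -0.10 to 0.38, edgeR adjusted p = 0.937) and 0.05 without control replicate 1. ATF4 is regulated mainly by translation, which mRNA counts do not show.

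Ddit3 encodes CHOP, the factor that links lasting stress to cell death. It lies on chromosome 10 of mm10 from 127290774 to 127296288 (plus strand). It had 7.26, 8.73 and 9.045 CPM in control against 11.9, 9.051 and 9.32 CPM in the labelled libraries. The groups are barely separated, by the margin between control replicate 3 and labelled replicate 2. The log2 fold change was 0.27 (SE 0.17, 95% confidence limits -0.13 to 0.67, edgeR adjusted p = 0.929) and 0.17 without control replicate 1. The tables hold a second Ddit3 row, for a 105-base gene model inside its exons on the same strand, with 0 counts in all libraries. No source used here says how reads in that shared stretch were assigned.

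Atf3, a stress-induced repressor and activator, had 37.3, 37.6 and 28.98 CPM in control against 35.3, 36.7 and 34.9 CPM in the labelled libraries. All 3 labelled values lie within the control range, and the log2 fold change was 0.04 (SE 0.13, edgeR adjusted p = 0.966). Atf5, a relative of ATF4 that is also controlled by translation, had 14.3, 26.6 and 26.7 CPM in control against 32.7, 27.0 and 29.7 CPM in the labelled libraries. Control replicate 1 stood far below the other 5 libraries. For Atf5 the log2 fold change of 0.40 (SE 0.23, 95% confidence limits -0.14 to 0.94, edgeR adjusted p = 0.908) was the largest of the 31, and it was 0.16 without control replicate 1. With GC offsets it was 0.32 (limits 0.12 to 0.51, edgeR adjusted p = 0.105). Cebpg, the partner with which ATF4 dimerises, had 86.0, 63.2 and 72.4 CPM in control against 64.3, 61.2 and 67.7 CPM in the labelled libraries. Here control replicate 1 was the highest library, and the log2 fold change was -0.20 (SE 0.13, edgeR adjusted p = 0.929), or -0.08 without it.

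The feedback and growth-control genes of the arm all had fold changes above 0 that shrank or changed sign without control replicate 1, apart from Trib3. Trib3, a pseudokinase that restrains ATF4 and CHOP, had 12.3, 13.5 and 10.5 CPM in control against 12.9, 12.9 and 12.2 CPM in the labelled libraries. These values overlap, and the log2 fold change was 0.06 (SE 0.14, edgeR adjusted p = 0.957) or 0.07 without control replicate 1. Ppp1r15a encodes GADD34, which brings the phosphatase that reverses eIF2 phosphorylation. It had 10.9, 15.3 and 19.5 CPM in control against 18.6, 15.3 and 21.96 CPM in the labelled libraries, a log2 fold change of 0.29 (SE 0.23, edgeR adjusted p = 0.937) with the groups overlapping, and 0.09 without control replicate 1.

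Chac1 breaks down glutathione and is among the sharpest ATF4 reporters. It had 3.25, 7.17 and 7.06 CPM in control against 6.95, 8.19 and 7.72 CPM in the labelled libraries. Its low control mean came from control replicate 1, with 47 counts, while the others had 93 to 123. The log2 fold change was 0.38 (95% confidence limits -0.29 to 1.05, edgeR adjusted p = 0.937), and 0.09 (interval -0.26 to 0.45) without that library. Ddit4, an inhibitor of the growth kinase mTORC1, had 12.4, 28.97 and 24.7 CPM in control against 22.9 to 29.6 CPM in the labelled libraries, with a log2 fold change of 0.26 or, without control replicate 1, -0.03. Sesn2, a leucine sensor that acts on the same kinase, went from 0.17 to -0.04 in the same way.

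Promoter letters known to be bound by ATF4 are shown here as a description. The arm holds genes that ATF4 is known to drive, so matches among them are not independent of that choice. The C/EBP-ATF response element was searched as TGATGCAA on both strands, in RefSeq windows (GRCm38.p6, the assembly of mm10). Each window ran from 250 bases before to 50 after a RefSeq start, and a gene could have several (32851 windows). These starts can differ from the gene coordinates of the deposited tables. The Atf3 match, for example, lies inside that gene (191170296 to 191218039, minus strand). It occurred in 2 of 15 ATF4-arm genes and 1 of 11 ER-arm genes with a window, and in 1.03% of all 27025 genes with a window. The stretches are given 5′ to 3′ on the gene's strand, with the match in capitals (TTGCATCA is the same site read from the other strand). Atf3 lies at chr1:191183426-191183453 (minus strand), Chac1 at chr2:119351039-119351066 (plus strand) and Herpud1 at chr8:94386307-94386334 (plus strand).
Atf3: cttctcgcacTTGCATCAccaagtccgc
Chac1: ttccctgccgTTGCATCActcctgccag
Herpud1: ccacggcgggTTGCATCAgcccgcaccc
Log2 fold changes of these 3 genes were 0.04, 0.38 and 0.12, and 0.09, 0.09 and 0.08 without control replicate 1. A match is a description of the letters, not of binding, and no match in the other windows says only that these letters are not there.

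The enzymes of the arm were the most tightly bounded. All 5 had 95% intervals within 1.5-fold of no change. Asns, asparagine synthetase and the classical target of amino acid shortage, had 178.3, 163.4 and 143.6 CPM in control against 164.7, 158.2 and 145.1 CPM in the labelled libraries. The labelled values sit inside the control range, with a log2 fold change of -0.05 (SE 0.11, edgeR adjusted p = 0.954). Phgdh makes the first step of serine synthesis and had 269.4, 397.0 and 359.4 CPM in control against 432.4, 385.5 and 393.8 CPM in the labelled libraries. Its log2 fold change was 0.24 (SE 0.15, 95% confidence limits -0.10 to 0.58, edgeR adjusted p = 0.922), and 0.09 without control replicate 1, which was again lowest.

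Psat1, the next enzyme of serine synthesis, and Mthfd2, a mitochondrial folate enzyme, had log2 fold changes of -0.0039 (SE 0.08) and -0.0069 (SE 0.09). Shmt2, which passes the serine carbon to folate in mitochondria, had 0.20 (SE 0.15), or 0.05 without control replicate 1. Over the 15 genes of the arm, 11 fold changes were above 0 (48.3% of all tested genes were) and the median was 0.17, against -0.0073 for all tested genes. Without control replicate 1 the arm's median was 0.05, and without control replicate 2 it was 0.28, so its size rests on which controls are used.

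**Figure D2:**
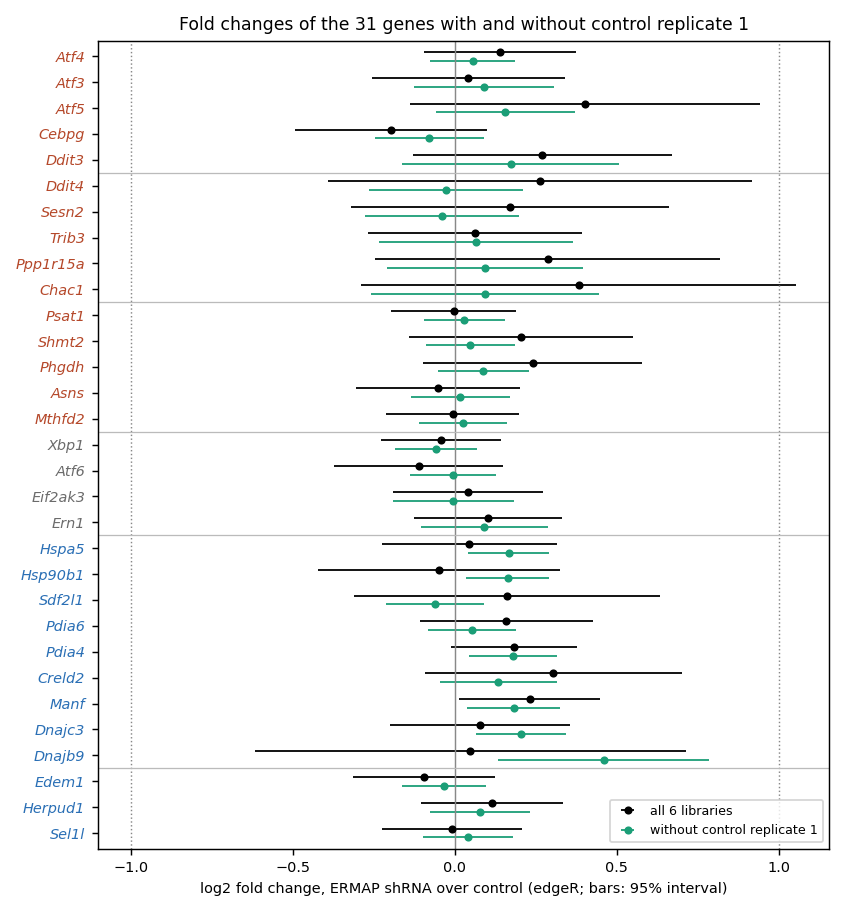
Log2 fold changes of the 31 genes (ERMAP shRNA over control, edgeR) with 95% intervals, for all 6 libraries in black and without control replicate 1 in green; gene names are red for the ATF4 arm, grey for the sensors and blue for the ER arm. Dotted lines mark a 2-fold change. Leaving out control replicate 1 moved Chac1, Ddit4 and Atf5 toward 0 and Dnajb9, Hspa5 and Hsp90b1 away from it.

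The sensors of the ER did not move beyond 1.5-fold by any of their 4 intervals. Xbp1 lies on chromosome 11 of mm10 from 5520659 to 5525893 (plus strand) and had 357.4, 369.4 and 358.3 CPM in control against 348.0, 347.7 and 357.6 CPM in the labelled libraries. The log2 fold change was -0.04 (SE 0.08, 95% confidence limits -0.23 to 0.14, edgeR adjusted p = 0.952). Counts per gene do not separate spliced from unspliced Xbp1, so the activity of IRE1 cannot be read from them. Ern1, which encodes IRE1, had 29.3, 29.3 and 30.04 CPM in control against 31.8, 32.7 and 30.7 CPM in the labelled libraries. These groups do not overlap, but they differ by little, with a log2 fold change of 0.10 (SE 0.10, edgeR adjusted p = 0.937). Atf6, whose protein is cut in the Golgi to release a transcription factor, had 316.1, 244.3 and 264.8 CPM in control against 246.3, 262.0 and 255.4 CPM in the labelled libraries. Its fitted log2 change was -0.11 (SE 0.11, edgeR adjusted p = 0.938) and -0.0055 without control replicate 1, the highest library.

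The ER arm held the most abundant members. Hspa5 encodes BiP, the main ER chaperone of the Hsp70 family and the sensors' own brake, and lies on chromosome 2 of mm10 from 34771970 to 34777547 (plus strand). On the deposited FPKM scale, which divides by gene length, its mean over all libraries was 306 and that of Hsp90b1 (GRP94) was 227. The highest of the ATF4 arm were Psat1 at 164 and Shmt2 at 159.8 FPKM, Atf4 had 119 and Xbp1 109 FPKM, and Ern1, Chac1 and Dnajb9 were lowest with 3.72, 4.08 and 4.43 FPKM.

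**Figure D3:**
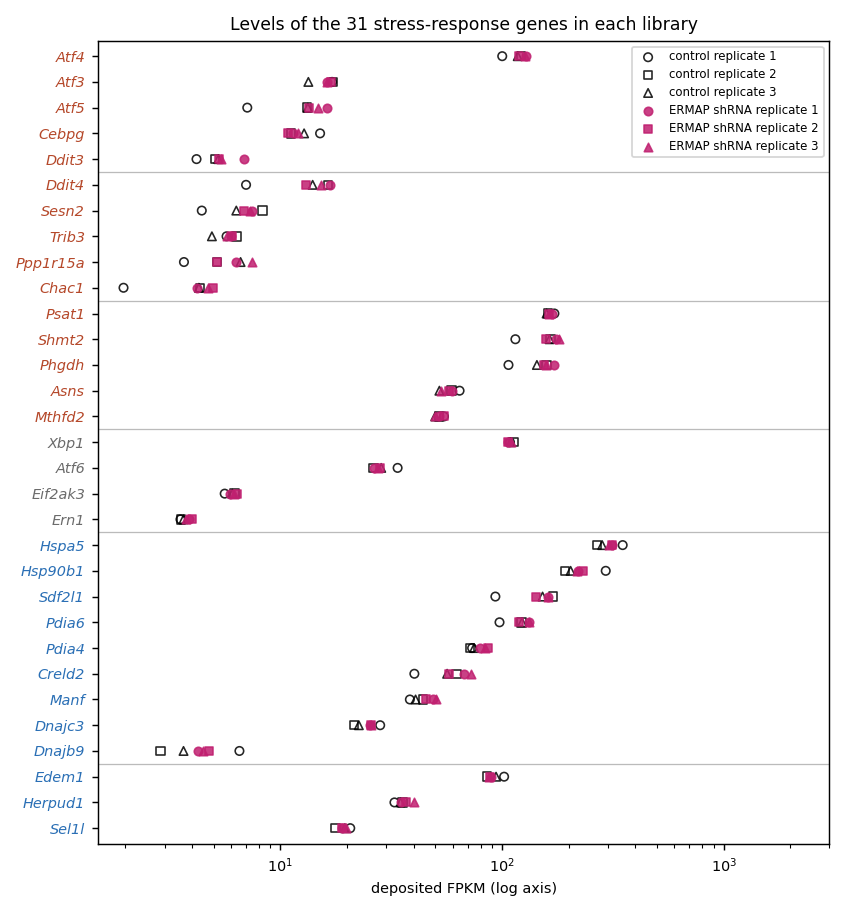
Deposited FPKM of the 31 genes in each library on a log axis, ordered by role and then by level. Open symbols are control libraries and filled symbols libraries labelled ERMAP shRNA. Most of the spread within a gene comes from control replicate 1 (open circles), which lies left of the rest for Chac1, Ddit4, Atf5 and Sdf2l1 and right of it for Dnajb9, Hsp90b1 and Atf6.

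Hspa5 had 1501, 1142 and 1205 CPM in control against 1336, 1337 and 1297 CPM in the labelled ones. The labelled libraries lay between control replicate 1 and the other 2 controls. The log2 fold change was 0.04 (SE 0.12, 95% confidence limits -0.22 to 0.31, edgeR adjusted p = 0.961), and without control replicate 1 it was 0.17 (SE 0.06, limits 0.04 to 0.29, edgeR adjusted p = 0.132). Hsp90b1 showed the same arrangement, with 1200.0, 782.9 and 827.5 CPM in control against 893.6, 936.6 and 885.6 CPM in the labelled libraries. Its fitted log2 change was -0.05 (SE 0.16) with all libraries and 0.16 (SE 0.06, edgeR adjusted p = 0.157) without control replicate 1, a change of sign.

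Dnajb9, a J-domain cochaperone of BiP that is driven by spliced XBP1, had 16.9, 7.41 and 9.38 CPM in control against 10.9, 12.2 and 11.5 CPM in the labelled libraries. Its fitted log2 change was 0.05 (SE 0.29, edgeR adjusted p = 0.981) and 0.46 (SE 0.16, limits 0.13 to 0.78, edgeR adjusted p = 0.107) without control replicate 1, the largest shift of the arm. Dnajc3, a cochaperone that also inhibits PERK and PKR, had 131.7 to 132.0 CPM in the labelled libraries, between 146.9 CPM in control replicate 1 and 111.2 and 116.9 CPM in the other controls. On the log2 scale its change was 0.08 (SE 0.12), and 0.20 (SE 0.07, edgeR adjusted p = 0.0924) without control replicate 1.

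The members of the arm with the smallest p over all libraries were Manf and Pdia4. Manf, a secreted ER-resident protein that binds BiP, had 137.1, 156.2 and 144.5 CPM in control against 173.6, 161.4 and 178.9 CPM in the labelled libraries. All labelled values exceeded all controls. The log2 fold change was 0.23 (SE 0.09, 95% confidence limits 0.01 to 0.45), with an unadjusted p of 0.0401 but an edgeR adjusted p of 0.673, so it did not pass the test. Pdia4, a protein disulfide isomerase, had 178.1, 173.1 and 180.5 CPM in control against 192.6, 208.8 and 202.0 CPM in the labelled libraries, again without overlap. On the log2 scale its change was 0.18 (SE 0.08, edgeR adjusted p = 0.777) and stayed at 0.18 without control replicate 1.

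Creld2, another ER-resident factor that follows ATF6, had 55.7, 85.9 and 77.7 CPM in control against 93.0, 78.7 and 99.1 CPM in the labelled libraries. Labelled replicate 2 lay among the controls, and the log2 fold change was 0.30 (SE 0.17, edgeR adjusted p = 0.904), or 0.13 without control replicate 1. Pdia6, a second disulfide isomerase, had 369.7, 461.5 and 464.1 CPM in control against 500.1, 447.8 and 499.1 CPM in the labelled libraries. On the log2 scale its change was 0.16 (SE 0.12, edgeR adjusted p = 0.937) and 0.05 without control replicate 1. Sdf2l1, which works with BiP and J proteins, had 0.16 (SE 0.20) and, without control replicate 1, -0.06.

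Of the genes of ER-associated degradation, which sends misfolded proteins to the proteasome, none was called. Herpud1, a membrane component driven by both ATF4 and ATF6, had 77.3, 83.6 and 81.9 CPM in control against 82.3, 86.6 and 94.1 CPM in the labelled libraries. These overlap, with a log2 fold change of 0.12 (SE 0.09, 95% confidence limits -0.10 to 0.33, edgeR adjusted p = 0.937). Sel1l, the adaptor of the degradation ligase, had -0.0087 (SE 0.09), and Edem1, which picks out misfolded glycoproteins, had -0.09 (SE 0.10).

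An element known from promoters of ER chaperones is shown as a description of the letters. The ER arm was chosen from known genes of this response, so matches among them are not independent of that choice. The ER stress response element was searched as CCAAT, any 9 bases and CCACG, on both strands of the same windows. It occurred in 5 of 11 ER-arm genes, 0 of 15 ATF4-arm genes, 0 of 3 sensors and 0.137% of all genes with a window. The shorter form, ATTGG, any 1 base and CCACG, occurred in Herpud1 and in 0.0444% of all genes, and TGACGTGG, a site of XBP1 and ATF6, in no member and in 0.714% of all genes. Atf6 and Manf had no entry. The Hspa5 match lies before its RefSeq start but after the gene start given above (34771970). In the lines below the match is in capitals, 5′ to 3′ on the gene's strand, and CGTGG at its left end marks the element read from the other strand. Positions are chr2:34772020-34772048 (Hspa5, plus strand), chr10:86705633-86705661 and chr10:86705528-86705556 (Hsp90b1, minus strand), chr14:118937822-118937850 (Dnajc3, plus strand), chr12:17266486-17266514 (Pdia6, plus strand), chr15:88819515-88819543 (Creld2, plus strand) and chr8:94386368-94386396 (Herpud1, plus strand).
Hspa5: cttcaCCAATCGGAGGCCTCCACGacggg
Hsp90b1, farther from the start: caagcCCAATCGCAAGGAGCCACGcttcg
Hsp90b1, nearer to the start: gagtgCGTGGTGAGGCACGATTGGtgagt
Dnajc3: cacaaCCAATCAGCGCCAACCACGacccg
Pdia6: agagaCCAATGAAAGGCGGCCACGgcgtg
Creld2: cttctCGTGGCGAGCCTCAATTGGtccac
Herpud1, short form: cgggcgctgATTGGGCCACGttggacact
The 6 genes with either form had a median log2 fold change of 0.10 (-0.05 to 0.30) and the 5 ER-arm genes without one 0.05 (-0.09 to 0.18). Without control replicate 1 the medians were 0.15 and 0.04, with the widest value, 0.46 for Dnajb9, in the group without the element. With GC offsets they were 0.14 and 0.12, closer together. No test was made of this split.

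Over the 12 genes of the ER arm, 9 fold changes were above 0 and the median was 0.10. Without control replicate 1 the median was 0.15, and 6 of the 12 had an unadjusted p under 0.05, all higher (Hspa5, Hsp90b1, Dnajb9, Dnajc3, Pdia4 and Manf), where 7.81% of all tested genes did so. None was lower at that p, against 8.54%. None was called, where 4.86% of all tested genes were (2.67% higher and 2.19% lower). In the ATF4 arm 0 of 15 reached an unadjusted p under 0.05 in that fit. The order of the arms' medians changed with a single library: the ATF4 median minus the ER median was 0.07 with all libraries, -0.09 without control replicate 1 and 0.22 without control replicate 2. By library, on the scale of deviations from control replicates 2 and 3, this difference was -0.37 in control replicate 1, 0.06 and -0.06 in the other controls, and -0.03, -0.06 and -0.10 in the labelled libraries. Control replicate 1 was lowest, and labelled replicates 1 and 2 lay within or near the range of the other controls, which mirror each other by construction. The difference between the arms was not tested.

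The GC content of the members moved with this. The median was 55.2% in the ATF4 arm and 48.4% in the ER arm, and control replicate 1 was lower than the other controls in 15 of 18 members with at least 50% GC and higher in 11 of 13 members below it. Across the 31 genes, which share these 3 libraries and are not independent replicates, the deviation of control replicate 1 had Pearson's r = -0.821 and Spearman's rho = -0.841 with GC content. The same held across 10765 protein-coding genes (rho = -0.77). Dnajb9 at 45.1% GC stood 1.01 above the other controls on the log2 scale, and Chac1 at 57.4% stood 1.10 below, written as -1.10. Trib3 at 59.9% departed from the pattern with 0.04. With offsets for GC content per library, the medians were 0.11 and 0.13 for the ATF4 and ER arms and 7 of 31 members had an unadjusted p under 0.05, all higher, against 6.82% of all tested genes. None was lower at that p, against 6.08%. None was called, where 3.06% of all tested genes were (2.03% higher and 1.02% lower). Of those 7, 3 were among the 15 genes of the ATF4 arm (Atf5, Phgdh and Shmt2). The other 4 were among the 12 of the ER arm (Dnajc3, Pdia4, Creld2 and Manf). Of the 7, 3 also reached that unadjusted p without control replicate 1 (Dnajc3, Pdia4 and Manf).

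**Figure D4:**
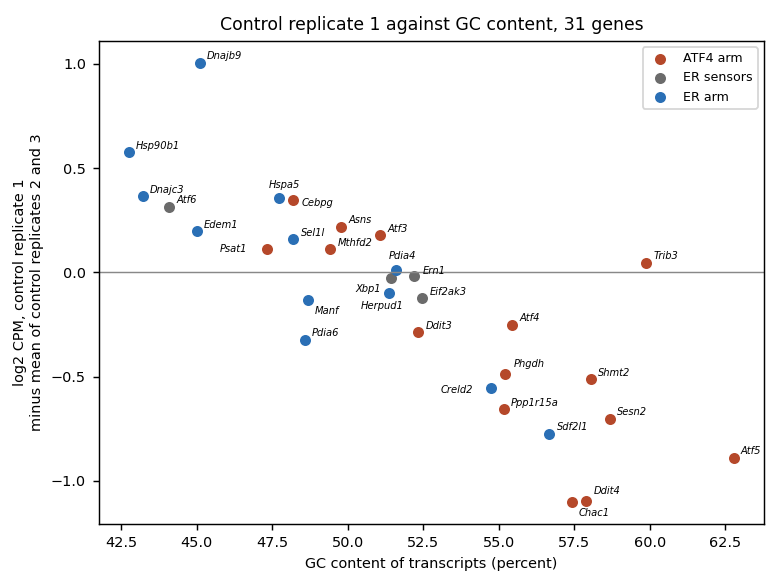
Log2 CPM of control replicate 1 minus the mean of control replicates 2 and 3, against the GC content of each gene's transcripts in percent, for the 31 genes. Points fall from Dnajb9 and Hsp90b1 at the upper left to Chac1, Ddit4 and Atf5 at the lower right, and most ATF4-arm genes (red) lie at higher GC content than the ER arm (blue).

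By library, the ATF4 arm's median log2 deviation from control replicates 2 and 3 was -0.29 in control replicate 1 and 0.10, 0.02 and 0.06 in the labelled libraries. For the ER arm it was 0.09 in control replicate 1 and 0.14, 0.08 and 0.16 in the labelled libraries, so labelled replicate 2 did not exceed control replicate 1. With GC offsets control replicate 1 came to -0.08 in the ATF4 arm and -0.06 in the ER arm, and the labelled libraries to 0.08 to 0.13 and 0.07 to 0.16. Every labelled library then lay above every control in both arms. These medians were not tested, and how often other sets of genes separate in this way was not measured. The median over the 4 sensors stayed between -0.054 and 0.046 under both scalings. Single sensors lay further out, with Atf6 at 0.31 and Eif2ak3 at -0.12 in control replicate 1 under TMM scaling. The part of GC content in these differences was not tested beyond the offsets.

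**Figure D5:**
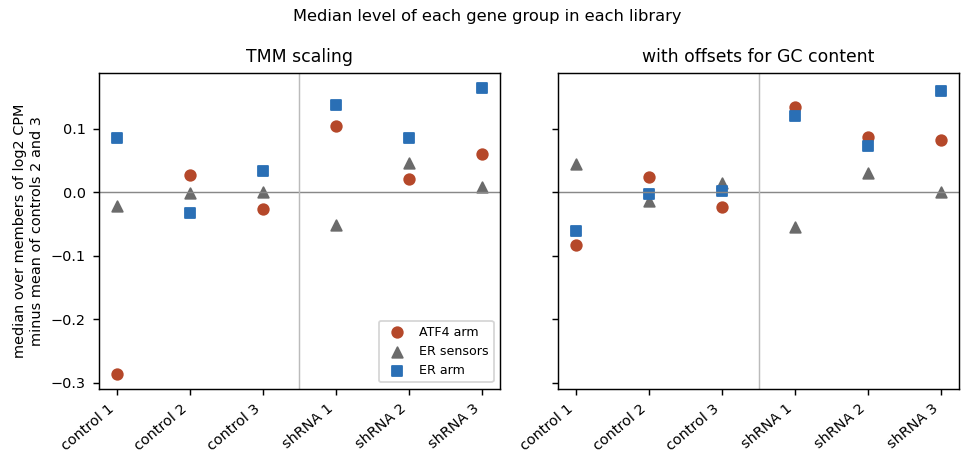
Median over the genes of each group of log2 CPM minus the mean of control replicates 2 and 3, per library, with TMM scaling (left) and with offsets for GC content (right). Control replicates 2 and 3 mirror each other around 0 by construction. Control replicate 1 is at -0.29 in the ATF4 arm on the left and at -0.08 on the right.

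Few genes of the wider pathway, taken from lists that hold no member, came near the threshold. For each count that follows, the shares over all tested genes with all libraries were 1.14% called, 3.71% higher at an unadjusted p under 0.05, 7.74% higher without overlap and 58.4% with intervals within 1.5-fold. Over all tested genes the median log2 fold change was -0.0073, and 48.3% of fold changes were above 0. Of 12 cytosolic tRNA synthetases, many of them ATF4 targets, 0 were called, 0 had an unadjusted p under 0.05 and all 12 had intervals within 1.5-fold. Their median log2 fold change was 0.05, with 7 of 12 above 0. The 9 tested amino acid transporters had a median log2 fold change of 0.13, with 7 of 9 above 0. Of them 0 were called and 2 had an unadjusted p under 0.05. These were Slc7a5, the large neutral amino acid carrier (193.5, 237.4 and 228.4 CPM in control against 281.5, 275.7 and 266.7 CPM in the labelled libraries), and Slc1a4, which carries alanine and serine (16.0, 17.6 and 17.03 against 21.4, 23.4 and 20.5 CPM). Neither gene's groups overlap. Their log2 fold changes were 0.32 (SE 0.10, edgeR adjusted p = 0.4) and 0.37 (SE 0.12, edgeR adjusted p = 0.41). Slc7a5 was called without control replicate 1 (0.23, edgeR adjusted p = 0.0317), where 4.86% of all tested genes were. With GC offsets Slc7a5 was not called (0.25, edgeR adjusted p = 0.109).

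Of 14 other ATF4 targets tested, 0 were called and 2 had an unadjusted p under 0.05. The median log2 fold change of the 14 was 0.13, with 12 of 14 above 0, against -0.0073 and 48.3% for all tested genes. Stc2, a secreted stanniocalcin, had 39.0, 46.2 and 47.9 CPM in control against 64.2, 59.4 and 62.6 CPM in the labelled libraries. The groups are clearly apart, with a log2 fold change of 0.48 (SE 0.11, edgeR adjusted p = 0.135). Stc2 was called without control replicate 1 (0.39, edgeR adjusted p = 0.00284), where 4.86% of all tested genes were. With GC offsets Stc2 was not called (0.52, edgeR adjusted p = 0.0976). Bcat1, a branched-chain aminotransferase, had 0.24 (SE 0.08, edgeR adjusted p = 0.489). Fgf21 and Gdf15, secreted stress signals named here after their values were seen, did not pass the filter, with 0 counts of Fgf21 in all libraries and 1 to 13 counts of Gdf15 per library.

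Of 16 other ER folding genes 0 were called and 1 had an unadjusted p under 0.05, Hyou1, an ER Hsp70 relative, with 0.31 (SE 0.11, edgeR adjusted p = 0.528). The median log2 fold change of the 16 was 0.12, with 14 of 16 above 0, against -0.0073 and 48.3% for all tested genes. Without control replicate 1, 1 was called, Hspa13, where 4.86% of all tested genes were (0.29, edgeR adjusted p = 0.0445). It is named after its values were seen. With GC offsets Hspa13 was not called (0.20, edgeR adjusted p = 0.219). At an unadjusted p under 0.05, 4 of the 16 were higher without control replicate 1, against 7.81% of all tested genes. With GC offsets 4 of 16 were higher at that p, against 6.82%. In both fits 0 of the 16 were lower, against 8.54% and 6.08%. Of 18 genes of ER degradation and protein entry and 10 further regulators of ER stress 0 were called, and 0 had an unadjusted p under 0.05. Their median log2 fold changes were -0.0063 and -0.03, with 8 of 18 and 4 of 10 above 0. Without control replicate 1, 0 were called in either list. At an unadjusted p under 0.05, 3 of the 18 were then higher and 1 lower, against 7.81% and 8.54% of all tested genes. Of the 10 regulators 0 reached that p.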

How the data were processed

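For 6 libraries the authors deposited raw counts of reads for each gene and FPKM for each library. The submitters' processing notes name HISAT2 and mm10. No source used here gives the counting program, its strand setting or the annotation release. The deposited FPKM were counts over gene length and a constant within -0.154% to 1.20% of the summed count. Column names give the group and a number, which could not be tied to single samples. Counts were tested over all genes with edgeR 4.0.16 (glmQLFit, robust, TMM, filterByExpr at a minimum count of 10, Benjamini-Hochberg, R 4.3.3), at an adjusted p under 0.05. The test was checked on simulated counts. Alternatives used DESeq2 1.42.0, limma 3.58.1 (voom, and trend on log2(FPKM + 1) and log2(FPKM + 0.1)), other scaling and filters, GC offsets (lowess, span 0.3, GENCODE vM21 transcripts), a block on replicate number and fits that each omit 1 library. Log2 CPM used a prior count of 2. Within groups, counts of every pair of libraries differed beyond sampling noise (chi-square per degree of freedom at least 3.35). The members, lists and tests were chosen with earlier results of these data known. Full values are given for 13 preset members and the 4 of each arm with the smallest unadjusted p; of other lists, Eif2ak2 and at most the 3 smallest.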

Additional observations from a re-analysis of the deposited data

How the results depend on the processing

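All 31 genes stayed uncalled in 16 alternative fits, and 17 of them kept the sign of their fold change in all of these. Arm counts stayed at 0. The ATF4 median ran from 0.05 to 0.28 and the ER median from 0.065 to 0.15 when 1 library was left out, and their difference from -0.094 to 0.22; the lowest ATF4 value, the highest ER value and the change of sign came without control replicate 1, and the highest ATF4 value without control replicate 2. With GC offsets the difference was -0.03. Over all tested genes, 126 were called higher and 17 lower, against 202 and 71 in DESeq2, 254 and 128 with GC offsets, and 81 and 3 with the replicate block. No filter on low counts gave 32 lower and an adjusted p under 0.1 gave 43 lower. Leaving out 1 library gave 73 to 342 higher and 3 to 280 lower, the highest without control replicate 1 and the lowest without labelled replicate 3. The cause was not tested, apart from the looser threshold, which calls more genes by construction. Whether the replicate numbers pair the samples is not settled. Deviations of same-numbered libraries correlated at -0.13, -0.28 and 0.18 across genes. With 3 libraries per group, each centred on its group mean, these correlations cannot decide it. The block changed no call among the 31. Depth limits Chac1 most among the members, at 47 to 123 counts per library.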

Other observations

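Heat shock genes, which guard protein folding in the cytosol and mitochondria rather than the ER, were tested as a separate list. Of 14 tested, 0 were called and 0 had an unadjusted p under 0.05 with all libraries, where 1.14% of all tested genes were called and 3.71% were higher and 3.04% lower at that p, and the median log2 fold change was 0.06. Hsp90ab1, the constitutive cytosolic Hsp90, had 2644, 2663 and 2583 CPM in control and 2913, 3008 and 2929 CPM in the labelled libraries, which do not overlap (7.74% of all tested genes were higher without overlap), with a log2 fold change of 0.17 (SE 0.08, edgeR adjusted p = 0.794). Hspd1 and Hspe1, the mitochondrial chaperonin pair, had 0.12 (SE 0.10) and 0.13 (SE 0.10). Without control replicate 1, 7 of the 14 had an unadjusted p under 0.05, all higher, and 0 were called. In the same fit the ER arm had 6 of 12, and of all tested genes 7.81% were higher and 8.54% lower at that p and 4.86% were called. With GC offsets the heat shock count was 1 of 14, and that of the ER arm 4 of 12, against 6.82% of all tested genes higher and 6.08% lower at that p.

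Several members share exonic bases with other annotated genes (GENCODE vM21), and the strand setting of the counting is unknown. The longest shared stretches on the opposite strand were 485 bases of Eif2ak3 with Gm43292, 415 bases of Hsp90b1 with 1810014B01Rik, and 166 and 146 bases of Manf with 4930524O07Rik and Dcaf1. Reads from the 2 genes of each pair could not be told apart if strand was not used. Phgdh has a pseudogene copy, Phgdh-ps1, with 41 counts over all 6 libraries.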
